A study of Arabidopsis thaliana with 4 samples.

Results

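The 4800 tiles of plates TB00 to TB49 were examined for H3K36me3, the trimethylated form of lysine 36 on histone H3, in seedlings of Arabidopsis thaliana. They were taken by name alone: every probe of plate set TB with a plate number from 00 to 49 and a value on all 4 arrays. All 50 plates were complete, with 8 rows of 12 wells each, so the stretch holds 4800 of the 21685 tiles with a value and none of its wells is missing. Chromatin from untreated Col-0 seedlings, aged 10 days or a little more, was immunoprecipitated with the antibody Abcam_ab9050 and compared with input DNA on 2-colour tiling arrays. The labels give 2 pairs of ChIP and input extracts, called replicates 1 and 2 here, each hybridised in both dye orientations. There is no second genotype, treatment or mark, and nothing in the labels says that the extract pairs came from separate cultures, so the spread behind every p-value below is that of 2 extract pairs and may be purely technical.

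H3K36me3 is placed on nucleosomes by SET-domain methyltransferases that travel with elongating RNA polymerase II. In Arabidopsis the main enzyme for the trimethylated form is SDG8. The mark is known from the bodies of transcribed genes and is scarce over silent repeats and transposons, so a profile along a chromosome usually alternates between marked genes and unmarked intervals.

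Values are log ratios of the ChIP and input channels as the authors deposited them. The dye-swapped arrays of a pair carry the same value at every tile, so each pair counts as 1 replicate (n = 2), and neither the log base nor which channel is the numerator can be read from them. High and low therefore describe the ratio as deposited, and turning its sign would exchange them for the mark. Each replicate was centred on its median over all 21685 tiles, and all values below are relative to that median unless stated. The tile identifiers are not paired with genes or positions in the tables used here, so no gene is named, no sequence is shown, and the seedling tissue could not be checked against marker genes. Whole seedlings mix cell types, and a mark on more cells cannot be told apart from more of it per cell.

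Within the stretch, high tiles formed a broad shoulder beside a narrow peak of low tiles. Tile values ran from -1.86 to 3.61 in replicate 1, with a median of 0.15. They ran from -1.56 to 3.35 in replicate 2, with a median of 0.10. The middle of the distribution was wide: the quartiles of the replicate mean lay at -0.32 and 1.41. Fitting 2 normal distributions to the whole array divided the tiles into an upper population (posterior above 0.99), a lower one, and tiles between. The upper population held 1558 tiles of the stretch (32.5%), against 28.3% of all tiles on the array. With 3 components and the upper of these alone, the shares were 17.4% and 15.6%. The lower population held 2823 (58.8%) and 419 (8.73%) lay between. The lowest upper tile stood at 0.979 and the highest tile between at 0.978, so the boundary cuts through a continuous range. Upper tiles averaged 2.01 in replicate 1 and 1.83 in replicate 2, and lower tiles averaged -0.24 and -0.27.

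**Figure D1:**
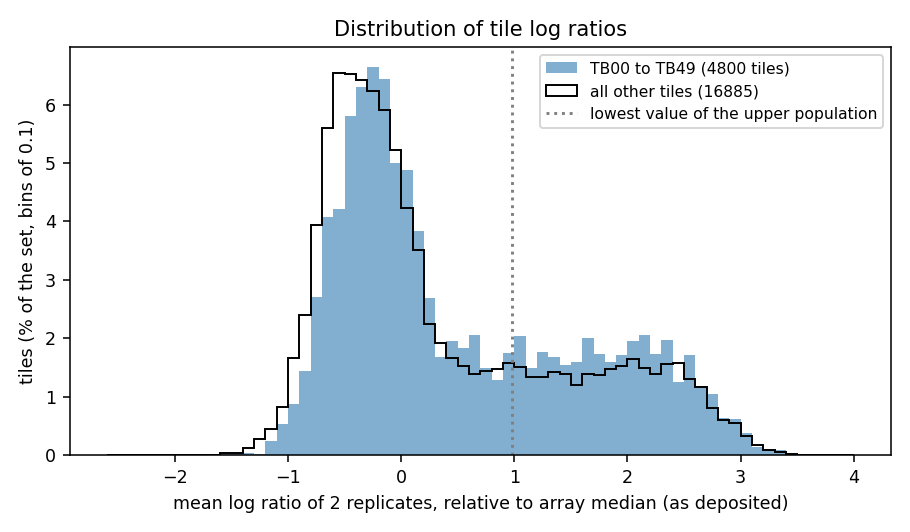
Share of tiles (percent of each set, bins of 0.1) against the mean log ratio of both replicates relative to the array median, for the 4800 tiles of TB00 to TB49 (filled) and the 16885 other tiles (outline). The filled histogram peaks to the right of the outline at low values and lies mostly above it between 0.5 and 2.5. The dotted line marks the lowest upper tile, at 0.979.

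Against the array median, 2109 tiles of the stretch (43.9%) were higher and 1233 (25.7%) were lower, while 1458 did not pass (limma, Benjamini-Hochberg adjusted over all tiles, threshold 0.05). Over the whole array 38.9% of tiles were called higher and 32.3% lower, and the counts of the stretch lay above the first of these shares and below the second. Of its 3342 called tiles, 3338 had the same sign in both replicates. The split rests on the centring: against 0 as deposited, 1145 tiles were higher and 3137 lower. With a minimum size of 0.5 (treat), 1678 tiles were higher and 141 lower. The shares of all tiles on the array under these other settings are not given here, so the counts do not set the stretch apart from the array.

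The highest tile was TB05B03, at 3.61 in replicate 1 and 3.35 in replicate 2, a mean of 3.48 ± 0.18 (SD, n = 2; limma adjusted p = 5.91e-15). It lay in a run of 8 upper tiles with uneven values. The 3 wells before it had means of 2.42, 1.17 and 1.19, the next well 2.51, and the third well after it was in the lower population at 0.17. The second highest tile, TB27E08, had 3.61 in replicate 1 and 3.09 in replicate 2, a mean of 3.35 ± 0.37 (SD, n = 2; limma adjusted p = 5.91e-15). The well before this tile had 1.72, and the 3 wells after it had 3.34, 2.82 and 2.17. In all, 35 tiles (0.729%) on 21 plates exceeded 3, close to the 0.715% of all tiles on the array, and 20 of them had an upper tile on either side.

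The lowest tiles lay side by side. TB34D08 had -1.86 in replicate 1 and -1.56 in replicate 2, a mean of -1.71 ± 0.21 (SD, n = 2; limma adjusted p = 5.68e-11). TB34D07, the well before it, had -1.75 and -1.35, a mean of -1.55 ± 0.29 (SD, n = 2; limma adjusted p = 5.24e-10). The well after the pair stood at -1.45, and the values returned to -0.59 and -0.63 on the outer sides, so the dip is 3 tiles wide. Such dips were rare. Only 44 tiles (0.917%) had a mean below -1, against 1.59% of all tiles on the array, and 35 of them stood alone.

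Ratios changed from plate to plate without a steady trend. Each plate's mean was tested against the mean of the other plate means in the same limma framework over all 231 plates. In the stretch, 23 of 50 plates were above the other plates and 10 below, and 17 did not pass (adjusted threshold 0.05). Among all 231 plates 42.9% were above and 30.3% below, so the stretch has a like share of plates above and a lower share below. The smallest called difference was 0.18. Against the array median in place of the other plates, 42 plates were above and 1 below, since the mean of all plate means is 0.40 above that median. The share of all 231 plates called in this way is not given here, so these counts do not set the stretch apart from the array.

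The 3 highest plates were TB07, TB03 and TB45. TB07 averaged 1.27 in replicate 1 and 1.17 in replicate 2, with 57 of 96 tiles (59.4%) in the upper population (limma adjusted p = 3.50e-16 against the other plates). TB03 averaged 1.29 and 1.13, and TB45 averaged 1.27 and 1.13. TB07 and TB08 lie next to each other in a series of 5 consecutive plates called above, TB06 to TB10. A second such series ran from TB43 to TB47.

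The 3 lowest plates were TB25, TB23 and TB38. TB25 averaged -0.25 in replicate 1 and -0.20 in replicate 2, with 8 upper tiles of 96 (limma adjusted p = 7.17e-12). TB23 averaged -0.10 and -0.14, with 11 upper tiles, and TB38 averaged -0.08 and -0.05, with 7. The low plates stood singly or in pairs, between higher ones. TB22 and TB24, on either side of TB23, averaged 0.49 each, and TB26 after TB25 averaged 0.63. No plate of the stretch had under 5% upper tiles, whereas 32 of the other 181 plates did. The adjoining stretches were alike in this, with 0 of 50 such plates in TB50 to TB99 and 3 of 48 in TA52 to TA99.

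**Figure D2:**
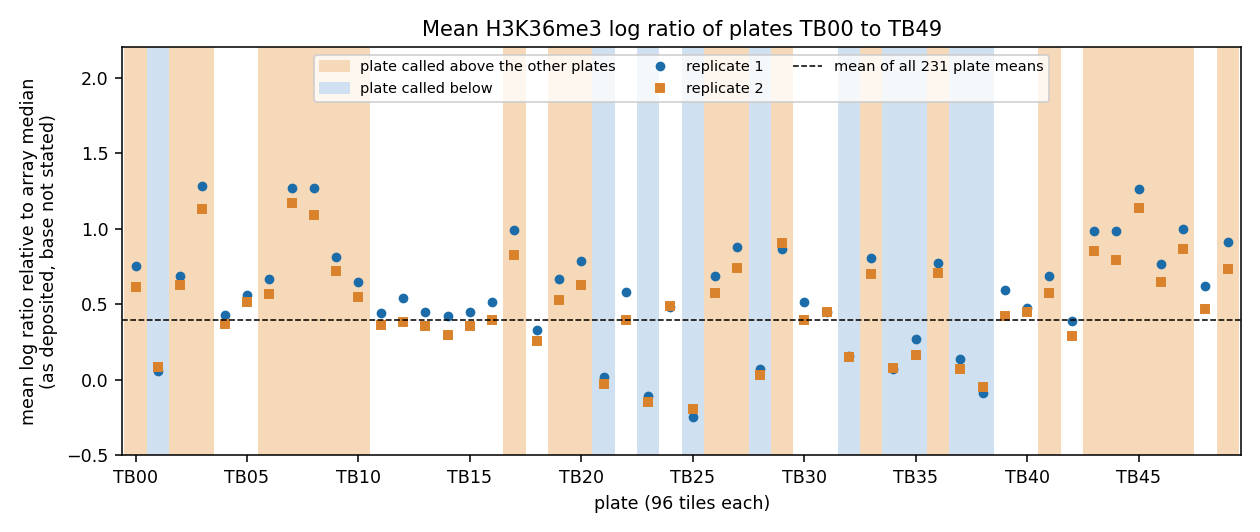
Mean log ratio of each of the 50 plates, in replicate 1 (circles) and replicate 2 (squares), relative to the array median; the dashed line is the mean of all 231 plate means, 0.40. Shading marks the 23 plates called above and the 10 called below the other plates. Low plates cluster between TB20 and TB39, and no plate from TB39 on is called below.

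In blocks of 10, the plates were high at both ends of the stretch. TB00 to TB09 averaged 0.78 in replicate 1 and 0.69 in replicate 2, with 38.9% upper tiles. TB40 to TB49 averaged 0.81 and 0.68, with 39.8% upper tiles. The blocks between were lower, at 0.54 and 0.43 for TB10 to TB19, at 0.40 and 0.34 for TB20 to TB29, and at 0.37 and 0.31 for TB30 to TB39. Of the 10 plates called below, 9 lay in TB20 to TB39. Each of these middle blocks lay below both end blocks in both replicates. The means of consecutive plates correlated with r = 0.122 over 49 pairs, a description across plates that share arrays.

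High tiles occurred in short runs of consecutive wells. The 1558 upper tiles formed 434 runs, 8.68 per plate, with a mean length of 3.59 tiles and a median of 3. Runs of 2 tiles were the most frequent, with 120, followed by 97 of 3 tiles and 68 single tiles. Most upper tiles still lay in longer runs: 80.2% had at least 3 tiles in their run, and 4.36% were single. An upper tile was followed by another upper tile in 72.1% of cases, and a lower tile by an upper tile in 9.35%.

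The longest run held 22 tiles and crossed from plate TB07 to TB08, from well TB07H01 to TB08A10. It averaged 2.46 in replicate 1 and 2.41 in replicate 2, the highest mean of the 14 runs with 10 or more tiles. Its lowest tile was still at 1.60, and the tiles just outside it fell to 0.68 and 0.85. When the populations were fitted to each replicate alone, the longest run had the same first and last well in both. No other run of the stretch reached this length.

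The next 4 runs were lower on average. A run of 19 tiles from TB29E06 to TB29F12 averaged 1.80 in replicate 1 and 1.90 in replicate 2, and its tiles ranged from 0.98 to 3.07. A run of 16 from TB17B12 to TB17D03 averaged 2.16 and 2.10. These runs, like the longest, had replicate means within 0.1 of each other. A run of 14 from TB10C12 to TB10E01 averaged 2.17 and 1.82, a wider gap between replicates, and a run of 13 from TB24A11 to TB24B11 averaged 1.92 and 1.76.

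Single upper tiles had a lower average than runs. They averaged 1.67 in replicate 1 and 1.44 in replicate 2. Runs of 2 averaged 1.99 and 1.78, and runs of 3 to 5 averaged 2.01 and 1.81. Runs of 6 to 9 averaged 2.06 and 1.89, and runs of 10 or more averaged 2.05 and 1.93. The widest step between adjacent classes was from single tiles to pairs. It was smaller than the SD over the runs of either class, 0.52 for single tiles and 0.42 for pairs. The SD over runs of 10 or more was narrower, at 0.21. Tiles were assigned by these same values, so the order is a description without a test.

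**Figure D3:**
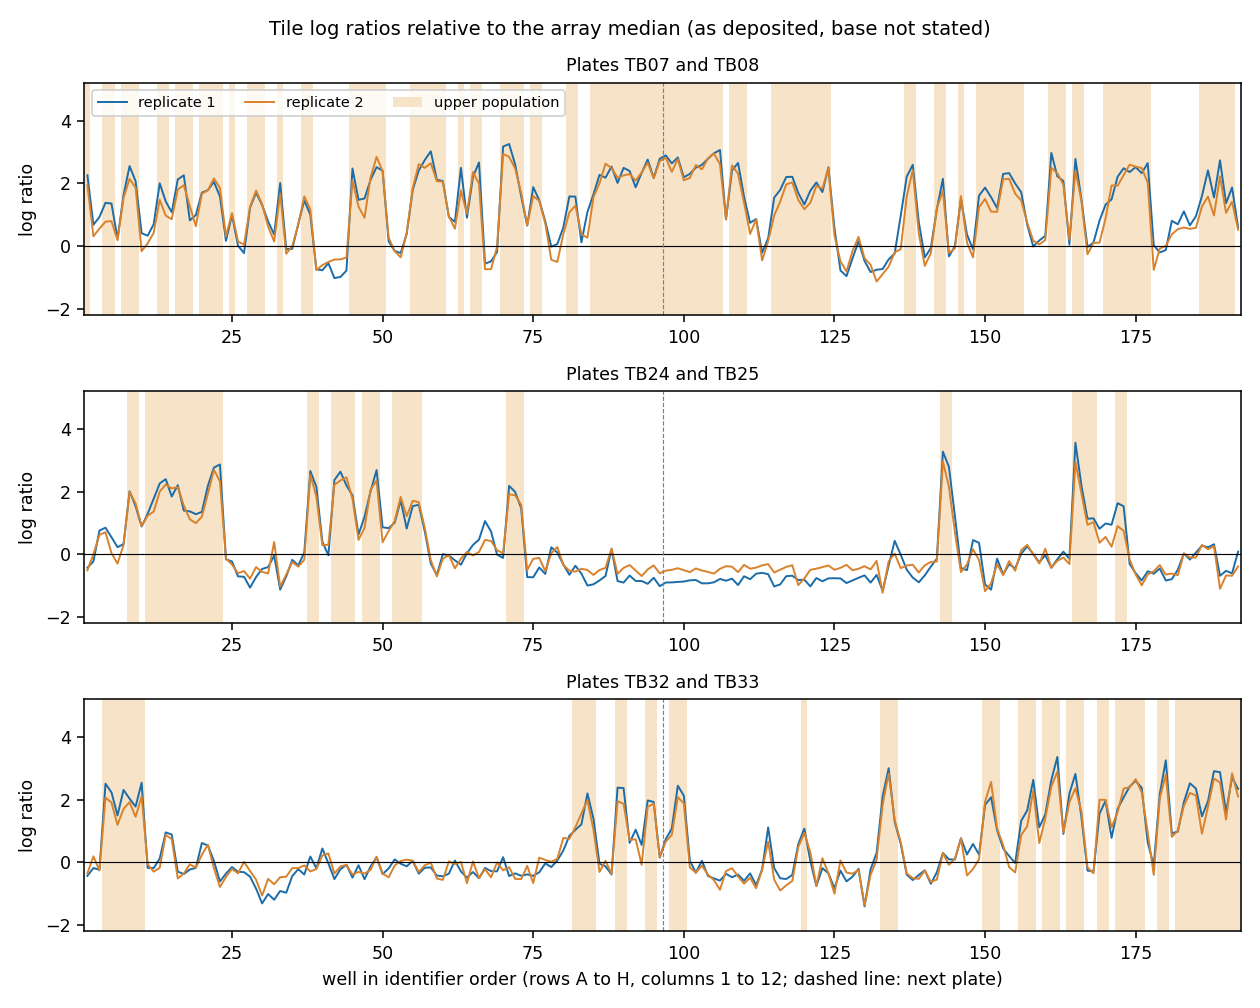
Log ratios of single tiles along plates TB07 and TB08 (top), TB24 and TB25 (middle), and TB32 and TB33 (bottom), in identifier order, for replicate 1 and replicate 2; shading marks the upper population. The top panel holds the longest run, of 22 tiles across the plate end. The middle panel shows a flat low interval of 69 tiles with replicate 1 below replicate 2. The bottom panel shows the longest interval without an upper tile, 71 tiles of uneven values where the replicates mostly overlap.

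The intervals between runs ranged from 1 tile to 71. Of 433 such gaps, 101 were a single tile wide. These single tiles averaged 0.54 in replicate 1 and 0.48 in replicate 2, between neighbours that averaged 1.79. Of them, 59 were in the population between and 42 in the lower population. At the other end, 41 gaps were 20 tiles or longer and held 27.6% of the stretch. Their means ran from -0.57 to 0.05 with a median of -0.27.

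The longest interval without an upper tile ran over 71 wells, from TB32A11 to TB32G09. It averaged -0.21 in replicate 1 and -0.17 in replicate 2, and its tiles ranged from -1.18 to 0.92, so it was neither uniform nor among the lowest. Intervals of 57 wells each lay from TB01B05 to TB01G01, at -0.46 and -0.42, and from TB20H11 to TB21E07, at -0.31 and -0.32. The replicates differed by under 0.1 in each of these intervals.

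The interval of 69 wells from TB24G02 to TB25D10 stood apart from these in level and in replicate difference. It averaged -0.70 in replicate 1 and -0.44 in replicate 2, the lowest mean of the 41 long gaps, of which the next lowest was -0.48. All 69 tiles belonged to the lower population, as did all tiles in 12 of the 41 long gaps, this one included. Its replicate difference of -0.27 was also the widest, since the other long gaps lay between -0.12 and 0.17. Within it, 36 consecutive tiles from TB24G11 to TB25B10 were lower in replicate 1 than in replicate 2, with means of -0.80 and -0.47, and 13 more followed from TB25B12 to TB25C12, with means of -0.81 and -0.45. The next longest series of that sign elsewhere in the stretch held 14 tiles. The interval was flat: the SD over its tiles was 0.24, against a median of 0.37 over the long gaps, though the smallest was 0.20. It ended sharply, with flanking tiles of 1.52 and 3.12. This interval was singled out after its values were seen. Over the 41 long gaps, the mean and the replicate difference correlated with r = 0.43, a description across gaps that share arrays. Outside the stretch, like means occurred on whole plates, for example TA40 with -0.79 in replicate 1 and -0.45 in replicate 2.

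The outline of a run was measured in the replicate that had not defined it. For 100 runs of 5 or more tiles defined in replicate 1, replicate 2 rose from 0.38 in the well before the run to 1.69 in its first tile and 2.00 in its second. It stood at 2.03 inside, at 2.07 in the second last tile and at 1.69 in the last, and fell to 0.39 in the well after. The end tiles of the runs thus lay below the inner tiles on average on both sides, and the first tile was the higher of the end tiles in 50 of the 100 runs. The inner tiles exceeded the mean of the ends in 69 runs. For 88 runs defined in replicate 2 and measured in replicate 1, the first tile had 1.86, the inner tiles 2.17 and the last tile 1.91, the inner tiles were higher in 61 runs, and the first tile was the higher of the end tiles in 39. The SD over runs was between 0.46 and 0.66 at each position inside. Runs end where values fall below a boundary, and the replicates correlate with r = 0.972 over tiles. The definition itself therefore favours lower end tiles, also in the other replicate. Centring and scale are shared within a replicate, so these values describe shape rather than a level free of the array.

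**Figure D4:**
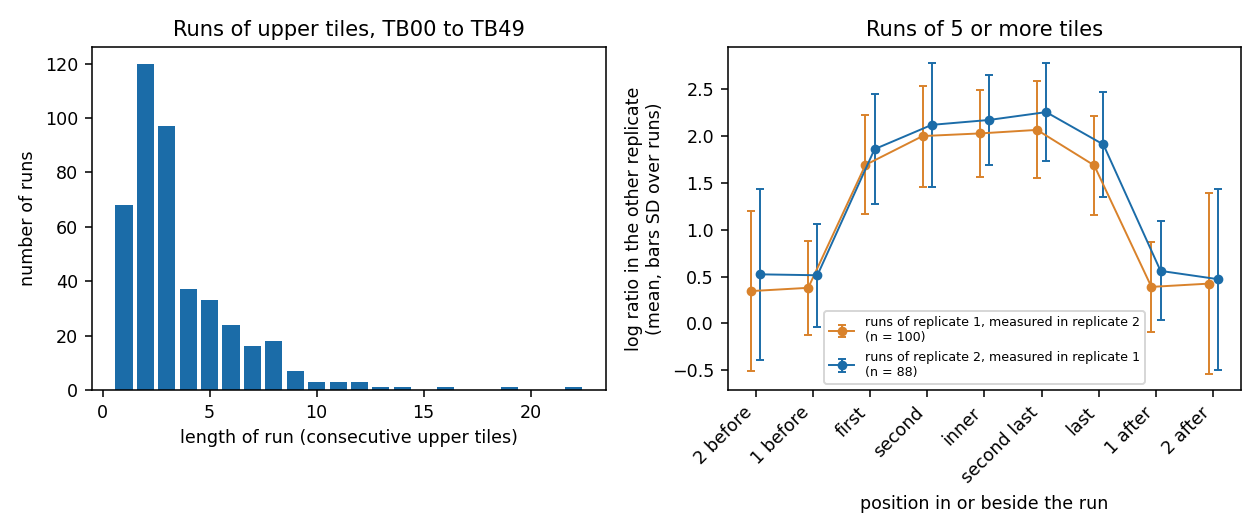
Left, number of runs of consecutive upper tiles by length, with most at 2 and 3 tiles and a tail to 22. Right, mean log ratio (bars, SD over runs) at positions in and beside runs of 5 or more tiles, defined in one replicate and measured in the other: both curves step up by over 1 at the first tile and down again after the last.

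Tiles between the populations lay mostly at such edges. Of 418 with both neighbours in the stretch, 232 had an upper tile on 1 side and 59 on both, which together is 69.6%. Among lower tiles the share beside an upper tile was 16.9%. Tiles between are cut by value just under the upper population and neighbouring tiles have similar values, so the definition itself favours this order. Consecutive wells differed by over 1 in 19.1% of 4799 pairs, while the median step was 0.40.

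Neighbouring tiles had similar values, and this likeness faded within a plate's length. Over 4799 pairs of consecutive wells the replicate means correlated with r = 0.698. The correlation was 0.434 at 2 wells apart, 0.221 at 5, 0.127 at 10 and 0.045 at 20, and 0.028 at 96, a whole plate. Between replicates, a tile in replicate 1 correlated with the next tile in replicate 2 with r = 0.686. The replicates correlate with r = 0.972 over tiles, so such a value follows closely from that of the replicate means. The difference between replicates itself correlated with r = 0.294 between consecutive wells. How far the likeness belongs to the arrays was not tested. All these correlations are descriptions across tiles, which share arrays and extracts.

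The likeness ran on across the ends of rows and plates. Pairs that bridge a row end correlated with r = 0.693 (350 pairs) and pairs across a plate end with r = 0.675 (49 pairs), against 0.699 within rows. Wells that adjoin vertically, within a column, correlated with r = 0.071. Column means lay between 0.55 and 0.61 in replicate 1 and between 0.44 and 0.53 in replicate 2. Row means varied more, from 0.44 in row E to 0.72 in row F in replicate 1 and from 0.39 to 0.62 in the same rows in replicate 2. Each row covers 12 consecutive tiles of a plate, so row means carry the run structure as well as any layout effect, and these cannot be told apart here.

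**Figure D5:**
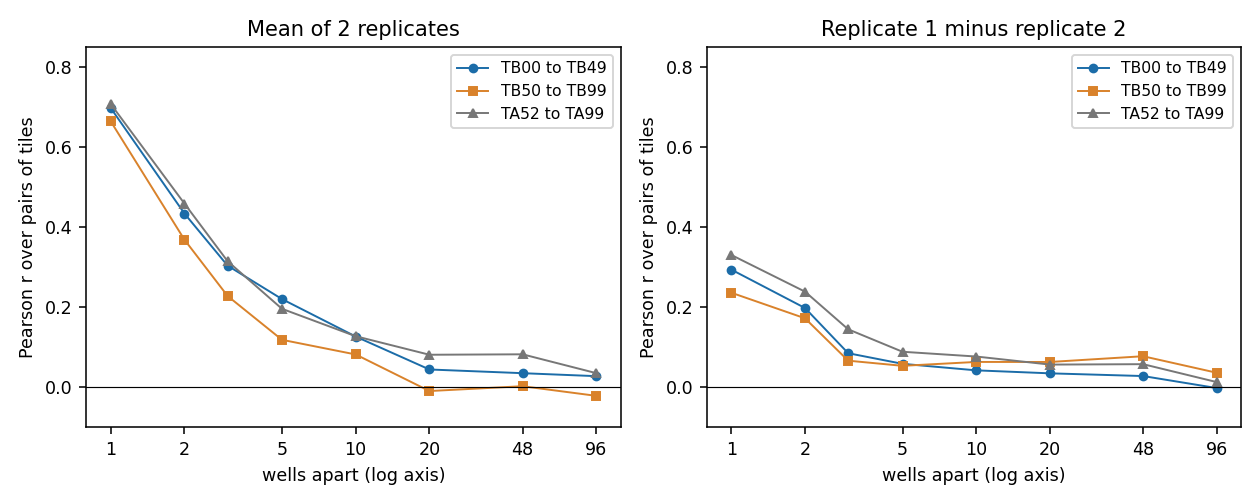
Pearson r over pairs of tiles against their distance in wells (log axis), for the mean of both replicates (left) and for replicate 1 minus replicate 2 (right), in TB00 to TB49, TB50 to TB99 and TA52 to TA99. In TB00 to TB49 r of the mean falls from 0.698 at 1 well to 0.028 at 96, and r of the difference from 0.294 to -0.002.

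The stretch lay between its neighbours in the order of names. Its mean was 0.58 in replicate 1 and 0.49 in replicate 2. TB50 to TB99, which follows, averaged 0.84 and 0.74, and TA52 to TA99, which precedes, averaged 0.34 and 0.29. The stretch was thus lower than TB50 to TB99 by 0.26 in replicate 1 and by 0.25 in replicate 2 (-0.43 between medians, averaged over both replicates), and higher than TA52 to TA99 by 0.24 and 0.20. Against all other tiles it was higher by 0.20 in replicate 1 and 0.13 in replicate 2. Both replicates had the same sign in each comparison, but no test was made of these differences; an exact permutation test over 2 replicates allows no two-sided p under 0.5.

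The neighbours differed mainly in how many tiles were high, and less in how high they were. The upper share was 32.5% in the stretch, 41.1% in TB50 to TB99 and 22.9% in TA52 to TA99. Upper tiles averaged 2.01, 2.01 and 2.09 in replicate 1 in the same order, and 1.83, 1.87 and 1.86 in replicate 2. Lower tiles averaged -0.24, -0.15 and -0.28 in replicate 1, and -0.27, -0.20 and -0.26 in replicate 2. When the difference of -0.25 from TB50 to TB99 was divided into shares of the 3 populations and levels within them, -0.20 came from the shares and -0.05 from the levels. For the difference of 0.22 from TA52 to TA99 the parts were 0.23 and -0.0048. Populations are cut by value, which narrows the room for their levels to differ.

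Runs were more frequent in TB50 to TB99 and of a like mean length. That stretch had 10.8 runs per plate with a mean length of 3.64 tiles, against 8.68 runs of 3.59 tiles in TB00 to TB49. TA52 to TA99 had 6.94 runs per plate with a mean length of 3.15. Runs of 10 or more tiles numbered 28 in TB50 to TB99, 14 in TB00 to TB49 and 10 in TA52 to TA99. Plates called below the other plates followed the same order, with 0 of 50 in TB50 to TB99, 10 of 50 in the stretch and 17 of 48 in TA52 to TA99, beside 30.3% of all plates. The difference between stretches in these counts was not tested. At an unadjusted limma p under 0.05, the count for TB50 to TB99 was also 0.

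The replicates gave closely matching profiles over the stretch. Across its tiles Pearson r was 0.972 and Spearman rho 0.951, and the plate means correlated with r = 0.989 over 50 plates. Fitted alone, replicate 1 had 1489 upper tiles and replicate 2 had 1423. The 1349 shared tiles were 90.6% of the first list and 94.8% of the second. Replicate 1 minus replicate 2 varied over tiles with an SD of 0.269. Replicate 1 was the higher one on 44 of 50 plates, by up to 0.20, and the excess was 0.18 among upper tiles and 0.03 among lower ones. Over the whole array, replicate 1 minus replicate 2 averaged 0.17 among upper tiles and -0.05 among lower ones. The excess among upper tiles is thus not particular to the stretch.

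Few single tiles departed from this. The replicates differed by over 1 at 9 tiles (0.188%), close to the 0.198% of all tiles on the array. The widest difference was at TB30B02, with 2.54 in replicate 1 and 0.85 in replicate 2, which lay between 0.58 before and -0.79 after. TB40E11 went the other way, with 0.91 in replicate 1 and 2.21 in replicate 2, and its neighbours were low in both, at -0.34 and -0.44. Both were assigned to the upper population by their means.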

How the data were processed

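The authors deposited 1 value per tile and array, treated here as a score: a log ratio of ChIP to input or the reverse, with its base, direction, scanner processing and genome build not given in the sources used here. Per the labels, 15 ug of each extract was labelled directly with Cy3 or Cy5 after amplification. Both columns of a dye-swap pair were identical at 21685 of 21685 tiles with a value, so 1 column per pair was used. Of 21800 identifiers the rest have no value.

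Replicates were centred on their medians (-1.22 and -1.10 as deposited), with no further normalization. Tiles were tested against 0, and plate means minus the mean of the other plates, with limma 3.58.1 in R 4.3.3 (intercept, eBayes, two-sided, Benjamini-Hochberg over all 21685 tiles or 231 plates). With 2 replicates, 1 residual degree of freedom is joined by 23.1 prior ones for tiles and 58.2 for plates, so SEs rest mostly on all features. The mixture used scikit-learn 1.9.0. Tests, mixture, runs and correlations were tested on simulated data. The number of arrays limits the precision.

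Named items follow a rule: the 2 highest and 2 lowest called tiles, the 5 longest upper runs, the 3 longest intervals without an upper tile (4 with a tie), the 3 highest and lowest plates, and the 2 widest replicate differences. The members and lists were chosen with earlier results of these data known. The TB24 to TB25 interval details, the long gaps, the blocks of 10 plates and the lines at -1 and 3 were chosen after seeing values. Alternatives are given in the closing section.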

Additional observations from a re-analysis of the deposited data

How the results depend on the processing

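Without centring, 1145 tiles of the stretch were higher and 3137 lower, because 0 as deposited lies above the array median. With a minimum size of 0.5, 141 were lower, as values nearer to 0 than that can no longer pass. The share of upper tiles was 41.2% with a posterior above 0.5, 17.4% with the upper of 3 components alone, and between 29.6% and 31.0% in single replicates. Against the array median, 42 plates were above and 1 below. For these altered counts of tiles and plates called, the shares over the whole array are not given here. With medians in place of means, the stretch differed by -0.43 from TB50 to TB99 and by 0.16 from TA52 to TA99. The correlation of consecutive tiles was 0.664 with plate means taken off and between 0.689 and 0.695 in single replicates. In single replicates the difference ran from 0.13 to 0.20 against all other tiles, from -0.26 to -0.25 against TB50 to TB99 and from 0.20 to 0.24 against TA52 to TA99. The number of runs stayed between 427 and 457. The 4 named tiles kept their sign and call under every alternative run for them. Of the 6 named plates, TB23 and TB38 did not pass against the array median. Counts of calls stayed within 1.5 times under quantile normalization, and likewise under a threshold of 0.01, trend and robust settings (tiles) and plate medians (plates). Counts of calls were not computed in single replicates, where no spread can be estimated.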
